A study of Gallus gallus with 4 samples.

Results

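The 43 genes described here encode proteins of the splicing machinery and related RNA-binding ribonucleoprotein (RNP) proteins. They are the chicken genes with a symbol starting SRSF, SNRP, HNRNP, SF3, PRPF, U2AF or RBM, other than RBM24, for which the array carried a probe designed to a RefSeq transcript. The gene table held 93 genes with such symbols, RBM24 included, of which 44 had a named probe on the array. The members had 134 probes in all, and the probe with the highest mean signal stood for each gene, so that 43 of the 5382 genes named on the array are covered. Other genes with these prefixes may lie among the probes known only by an Ensembl transcript and were not analysed here.

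Splicing removes introns from pre-mRNA. The spliceosome is built from small nuclear RNPs, each an RNA with a ring of Sm proteins and particle-specific proteins, and from factors that mark the splice sites. SR proteins, the SRSF genes, bind exons and mostly favour their inclusion, whereas heterogeneous nuclear RNPs (hnRNPs) coat nascent transcripts and often oppose it. Changes in the balance of such proteins accompany neural differentiation, and mutations in core splicing factor genes such as PRPF3 cause retinitis pigmentosa in humans.

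Total RNA came from chicken neural retina of embryonic day 8 (stage 33) that had been dissociated with trypsin and grown as a spreading culture in serum-containing medium. One group received the γ-secretase inhibitor DAPT at 10 µM, which blocks release of the active Notch fragment, and the other received the same volume of its solvent DMSO. Treatment ran from day 2 to the harvest on day 12, and each group had 2 samples, each on 1 one-colour Agilent array. Whether the replicates were separate embryos or separate platings is not given in the labels, and the p-values therefore reflect the spread of these 4 samples alone, which could be technical.

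The arrays were alike in quality. Between 85.7% and 89.3% of spots were well above background, and the correlation across features was 0.994 between the DMSO arrays and 0.996 between the DAPT arrays. Replicate 1 of both groups lay on 1 slide and replicate 2 of both on another, so each gene could also be compared within a slide. The cultures changed in cell-type markers: 7 of 7 measured fibroblast genes and 4 of 4 photoreceptor genes fell, 7 of 8 lens genes rose and 6 of 6 proliferation genes rose. Of 4 measured pigment epithelium genes 3 rose. The other lists were mixed, with 2 of 6 neuron genes higher and 3 lower, and 1 of 4 Müller glia genes higher and 1 lower. The fibroblast and lens counts held without any 1 array. Fewer photoreceptor and proliferation genes passed without either DAPT array, which leaves 1 array in that group. Without any 1 array the log2 fold changes of these photoreceptor genes stayed between -3.49 and -0.74. Those of the proliferation genes stayed between 0.80 and 1.40. The neuron and photoreceptor markers were well above background on both DMSO arrays, 6 of 6 and 4 of 4 measured, from 11 and 7 listed. So were 8 of 8 lens and 7 of 7 fibroblast genes. Measured genes had to be well above background on both arrays of a group, so these counts do not identify the tissue. In such bulk samples fewer cells of a type and less RNA per cell cannot be told apart.

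The comparison of DAPT with DMSO asks whether these genes differ after long exposure to the inhibitor. Every one of the 43 members was well above background on all 4 arrays, and none passed the test in either direction (limma, adjusted p under 0.05 over all 32288 features). Over all features 25.5% passed, 12.4% higher and 13.1% lower in DAPT, and among all genes with a symbol 28.3% passed. At an unadjusted p under 0.05 there were 6 members, 5 higher and 1 lower, against 38.8% of all features. The log2 fold changes of the members lay between -0.49 and 0.45, or 0.711-fold to 1.37-fold, so that no member reached a 2-fold change, a size of change that 12.6% of features had. The smallest adjusted p was 0.0517, for SNRPC.

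**Figure D1:**
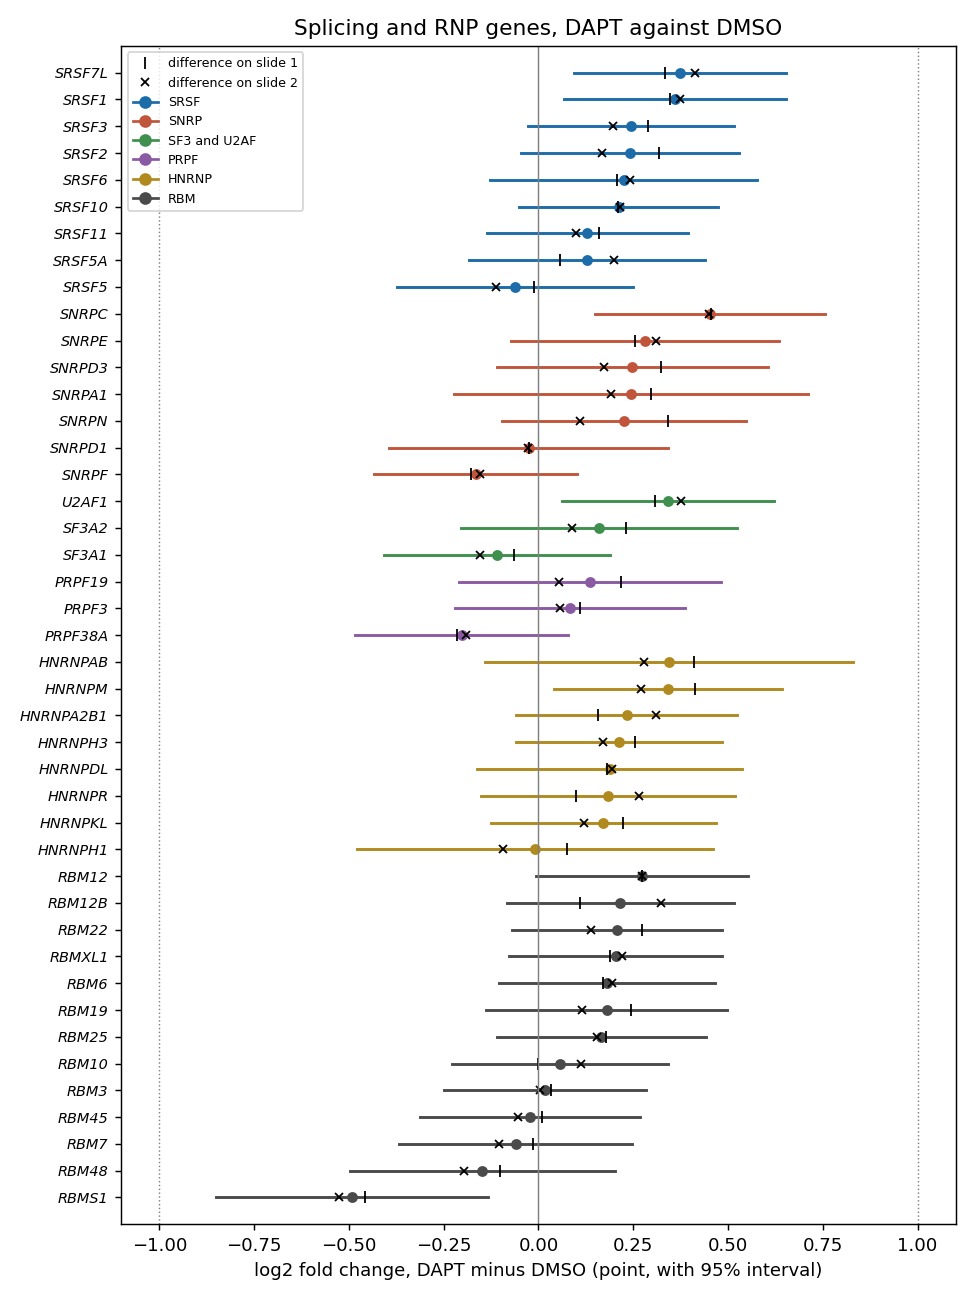
Log2 fold change (DAPT minus DMSO, horizontal axis) of each of the 43 genes, grouped by family, with the limma estimate as a point, its 95% interval as a line and the difference on each slide as a black mark. All intervals lie between the dotted lines at -1 and 1, a 2-fold change, and SNRPC and RBMS1 lie farthest from 0.

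The 95% intervals of the members reached from -0.85 at the lowest end to 0.83 at the highest. They rest on the spread of these 4 samples alone, which could be technical. The standard errors of the members ran from 0.098 to 0.18 on the log2 scale, with a median of 0.11 beside 0.13 for all features. The 95% interval lay inside a log2 fold change of 1 in either direction for 43 of 43 members, compared with 70.5% of all features, and inside 0.5 in either direction for 23 members, compared with 25.8% of features. These intervals are not adjusted for the number of genes.

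Within those bounds the small differences leaned one way. The estimate was above 0 for 33 members and below 0 for 10, while 56.9% of all features had an estimate above 0. Of 73 other RNA-processing genes, described below, 54 had an estimate above 0, with a median of 0.092. A lean in sign was thus not particular to the members. The median log2 fold change was 0.18, or 1.14-fold (0.19 on slide 1 and 0.17 on slide 2), beside 0.061 for all features and 0.082 for all genes with a symbol. Both DAPT arrays lay above both DMSO arrays for 27 members (36.9% of all features) and below them for 4 (28.8% of all features), and the groups overlapped for 12. The sign was the same on both slides for 40 of 43 members, and this share was not computed over all features. The difference of medians between the members and all features was 0.12 with the 75th percentile and 0.059 with quantile normalization, and 31 members kept an estimate above 0 with quantile normalization.

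Adding a block to the fit changed the calls. Slide, scan and replicate number split the 4 arrays in the same way and cannot be told apart. When the slide, which here equals the replicate number, was a block in the fit, 6 members passed higher and 1 lower in limma, with 21.2% of all features higher and 18.6% lower in that fit. These were SRSF1, SRSF7L, SNRPC, U2AF1, HNRNPM and HNRNPAB, and in the other direction RBMS1. With quantile normalization and no block, the 6 higher genes were closer to 0, from 0.24 for SRSF1 to 0.33 for SNRPC. RBMS1 was then at -0.58, and no member passed in limma. A call lost when 1 of the 4 arrays is left out is not read as instability, since 1 array then remains in a group. Only sizes are given here for those fits. Without a block, the members' median log2 fold change was then 0.15 to 0.19, and that of all features 0.016 to 0.095.

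**Figure D2:**
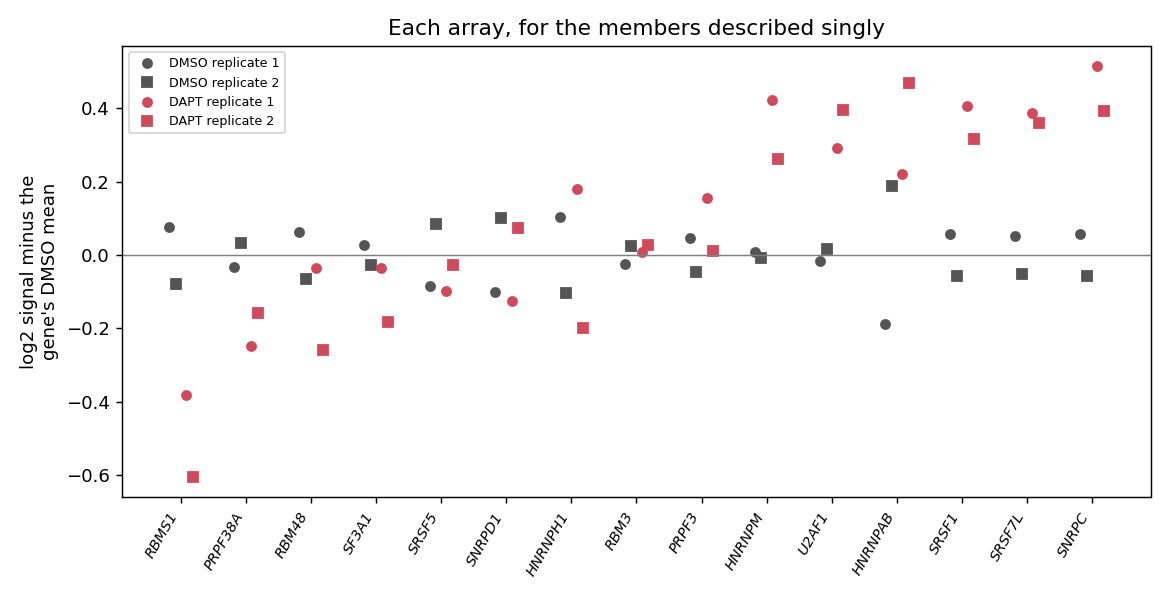
Log2 signal on each array minus the DMSO mean of the same gene (vertical axis) for the 15 members described singly, with DMSO in grey and DAPT in red, and replicate 1 as circles and replicate 2 as squares. SNRPC, SRSF7L, SRSF1, U2AF1, HNRNPM and HNRNPAB had both DAPT arrays above both DMSO arrays. RBMS1, PRPF38A and SF3A1 had both below, and the arrays of HNRNPH1, RBM3, SNRPD1, SRSF5, PRPF3 and RBM48 overlap.

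SR protein genes mostly had slightly higher values in DAPT, none past the threshold. Of 9 SRSF genes 8 had an estimate above 0 (56.9% of all features), and all 8 had both DAPT arrays above both DMSO arrays (36.9% of all features). The family median was 0.22. In limma 0 of the 9 passed (25.5% of all features), and 2 had an unadjusted p under 0.05 (38.8% of all features). All levels given here are log2 signals relative to the 75th percentile of the array. SRSF7L, a gene listed in the table with the older name SFRS7 and related to the mRNA export adaptor SRSF7, stood at 3.78 and 3.67 in DMSO and at 4.11 and 4.09 in DAPT. Both DAPT values were above both DMSO values, and the difference was 0.37 ± 0.10 (log2 fold change ± SE throughout, n = 2 arrays in each group), with a limma adjusted p of 0.0680, or 0.0333 with the slide block. SRSF1, the founding SR protein, which promotes use of nearby splice sites, stood at 4.67 and 4.56 in DMSO and at 5.02 and 4.93 in DAPT. The groups did not overlap, at 0.36 ± 0.11 (limma adjusted p = 0.0825, and 0.0342 with the block), and its 5 probes ran from 0.30 to 0.43.

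The other SR genes differed by less. SRSF3, the smallest SR protein, was at 0.24 ± 0.10 with 7 probes between 0.21 and 0.33. SRSF2, a component of nuclear speckles, was at 0.24 ± 0.11, SRSF6 at 0.22 ± 0.13 and SRSF10, which acts as a repressor when dephosphorylated, at 0.21 ± 0.098. SRSF11 and SRSF5A had the same rounded estimate, 0.13 ± 0.099 and 0.13 ± 0.12. SRSF5 was the family's exception, at 1.37 and 1.54 in DMSO and 1.36 and 1.43 in DAPT, a difference of -0.062 ± 0.12 with a 95% interval from -0.37 to 0.25. One DAPT value of SRSF5 lay just below the DMSO values and the other between them. SRSF5 and SRSF5A, like SRSF7L and SRSF7, are related genes, and how far their probes tell them apart was not tested.

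Among the snRNP genes, SNRPC had the highest estimate of all 43 members with the 75th percentile. It encodes U1-C, the U1 snRNP protein that steadies pairing with the 5′ splice site. SNRPC stood at 4.11 and 3.99 in DMSO and at 4.57 and 4.44 in DAPT. The arrays did not overlap, and the difference was almost equal on the 2 slides, 0.46 and 0.45. The estimate was 0.45 ± 0.11, or 1.37-fold, with a 95% interval from 0.15 to 0.76 and a limma adjusted p of 0.0517. It passed under 6 of 14 alternatives, which include each array left out (limma adjusted p of 0.0195 with the slide block). Its 4 probes lay between 0.42 and 0.46.

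The genes of the Sm ring proteins had estimates on both sides of 0, and differences between them were not tested. SNRPE was at 0.28 ± 0.13, SNRPD3 at 0.25 ± 0.13 and SNRPN, listed also under the older name SNRPB, at 0.23 ± 0.12, whereas SNRPD1 and SNRPF had estimates below 0. SNRPD1 stood at -0.044 and 0.16 in DMSO and at -0.069 and 0.13 in DAPT. Each DAPT array of SNRPD1 was close to the DMSO array of its own slide, with slide differences of -0.025 and -0.027, and the estimate was -0.026 ± 0.14. SNRPF was at -0.17 ± 0.10, with both DAPT arrays below both DMSO arrays. SNRPA1, a U2 snRNP protein, was at 0.24 ± 0.17, and its groups overlapped. None of the 7 SNRP genes passed in limma, beside 25.5% of all features, and 1 had an unadjusted p under 0.05, beside 38.8%.

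At the 3′ splice site, U2AF1, the small U2AF subunit that reads the terminal AG of the intron, stood at 3.36 and 3.39 in DMSO and at 3.67 and 3.77 in DAPT. The groups were separate by more than either pair's gap, at 0.34 ± 0.10 (limma adjusted p = 0.0825, and 0.0401 with the block). Its 5 probes were all above 0 but spread from 0.079 to 0.34. SF3A1 and SF3A2 encode SF3a subunits of the U2 snRNP. SF3A1 stood at 2.31 and 2.26 in DMSO and at 2.25 and 2.10 in DAPT, both lower, but 1 of them by little, at -0.11 ± 0.11. SF3A2 was at 0.16 ± 0.14 with overlapping groups on the probe used, and neither gene passed in limma (adjusted p of 0.534 and 0.456). The other SF3A2 probes, both dimmer, were at 0.40 ± 0.16 and 0.29 ± 0.11, with both DAPT arrays above both DMSO arrays. Neither of these probes passed with every probe tested (limma adjusted p of 0.151 and 0.129).

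PRPF genes act in the tri-snRNP and the activation of the spliceosome. On the probes used these 3 genes had the smallest family median, 0.083. PRPF3, a U4/U6 protein, stood at 0.41 and 0.32 in DMSO and at 0.52 and 0.38 in DAPT. The groups overlapped, at 0.083 ± 0.11 with a 95% interval from -0.22 to 0.39, and the other PRPF3 probe was at 0.16 ± 0.10. PRPF19, the ubiquitin ligase of the Prp19 complex, was at 0.14 ± 0.13, also with overlap. This was the lowest of its 4 probes, which ran up to 0.24. PRPF38A, which joins the spliceosome before activation, stood at 0.36 and 0.43 in DMSO and at 0.14 and 0.23 in DAPT. Both DAPT arrays were lower on PRPF38A, at -0.20 ± 0.10, which did not pass (limma adjusted p = 0.236).

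Of 8 hnRNP genes 7 had both DAPT arrays above both DMSO arrays (36.9% of all features), and the family median was 0.20. HNRNPM, a regulator of alternative exons, stood at 1.98 and 1.96 in DMSO and at 2.40 and 2.24 in DAPT. Its difference of 0.34 ± 0.11 had a limma adjusted p of 0.0971, or 0.0469 with the block. HNRNPAB, an hnRNP that binds AU-rich RNA, stood at 2.92 and 3.30 in DMSO and at 3.33 and 3.58 in DAPT. Its replicates differed by more than those of most members, and the lower DAPT array was barely above the higher DMSO array, at 0.34 ± 0.18 (limma adjusted p = 0.241, and 0.0447 with the block). The HNRNPAB estimate was 0.16 without DMSO replicate 1 and 0.53 without DMSO replicate 2. The other HNRNPAB probe had closer replicates, at 2.75 and 2.81 in DMSO and 3.30 and 3.25 in DAPT, and its difference of 0.49 ± 0.10 passed when every probe was tested (adjusted p = 0.0285 in limma).

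HNRNPH1, which binds G-rich elements, was the member with the smallest difference. It stood at 3.66 and 3.46 in DMSO and at 3.74 and 3.36 in DAPT, so that the DAPT arrays lay on either side of both DMSO arrays, and the estimate was -0.0092 ± 0.18. All 7 HNRNPH1 probes lay between -0.041 and 0.090. Its relative HNRNPH3 was at 0.21 ± 0.10, HNRNPA2B1, which also carries RNA to neuronal processes, at 0.23 ± 0.11, HNRNPDL at 0.19 ± 0.13 and HNRNPR at 0.18 ± 0.13. HNRNPKL, which the gene table places on the W chromosome of females and lists also as HNRNPK, was at 0.17 ± 0.11. Its signal cannot be divided with certainty from that of the HNRNPK copy on the Z chromosome.

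The 13 RBM genes share an RNA recognition motif but not a common task, and 9 had an estimate above 0. RBMS1, which binds single-stranded nucleic acids and AU-rich RNA, had the largest difference in size of all members with the 75th percentile and all arrays. SNRPC was larger in size with median scaling (0.50 against -0.45), without DMSO replicate 1 (0.51 against -0.41) and without DAPT replicate 2 (0.51 against -0.38). RBMS1 stood at 3.48 and 3.32 in DMSO and at 3.02 and 2.79 in DAPT. Both DAPT arrays were lower, by 0.46 on slide 1 and by 0.53 on slide 2 in size, and the estimate was -0.49 ± 0.13, or 0.711-fold, with a 95% interval from -0.85 to -0.13. The limma adjusted p was 0.0640, and it was 0.0168 with the block. RBMS1 passed under 4 of 14 alternatives, and its 3 probes lay between -0.53 and -0.47. On the same arrays the 7 fibroblast markers had a mean log2 signal from 1.24 to 1.38 in the DMSO arrays and from -2.30 to -2.27 in the DAPT arrays, with all 7 well above background on all arrays, and their part in the RBMS1 value was not tested.

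RBM3, a protein induced by cold and known for protecting synapses in mice, had the smallest difference of the RBM genes. It stood at 5.25 and 5.30 in DMSO and at 5.28 and 5.30 in DAPT, a difference of 0.018 ± 0.10 with a 95% interval from -0.25 to 0.28. RBM45, a neural RNA-binding protein, was at -0.022 ± 0.11, RBM7, part of the complex that brings nuclear RNA to the exosome, at -0.060 ± 0.11, and RBM10, a repressor of exon inclusion, at 0.056 ± 0.11. These 4 genes all had overlapping groups.

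Of the RBM genes that were slightly higher, RBM12 was at 0.27 ± 0.10, RBM12B at 0.22 ± 0.11, RBM22, which sits at the catalytic centre of the spliceosome, at 0.21 ± 0.10, and RBMXL1, listed also as RBMX, at 0.20 ± 0.10. RBM6 was at 0.18 ± 0.11, RBM19, a factor of ribosomal RNA processing, at 0.18 ± 0.12, and RBM25, which works with the U1 snRNP, at 0.17 ± 0.10. These 7, of 13 RBM genes, were grouped here because both DAPT arrays lay above both DMSO arrays (36.9% of all features). In limma 0 of the 13 RBM genes passed (25.5% of all features), and 1, RBMS1, had an unadjusted p under 0.05 (38.8% of all features). RBM48, a protein needed for splicing of minor introns, stood at -1.04 and -1.17 in DMSO and at -1.14 and -1.36 in DAPT, with overlap at -0.15 ± 0.13.

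Several probes per gene gave a further reading of most members. Of the 39 genes with more than 1 probe, 32 had every probe on the same side of 0. The other 7 had probes on both sides, namely HNRNPH1, RBM3, RBM10, RBM48, SNRPD1, SRSF2 and SRSF5. The only RBM48 probe above 0 was at 9.0e-06, and the only RBM10 probe below 0 was at -0.0028. With every probe tested as a feature of its own, 6 of the 134 probes passed in limma, where 26.4% of all probes did, and they belonged to 5 genes. SNRPC accounted for 2, and RBMS1, HNRNPAB, RBM19 and RBM48 for 1 each. The second RBM19 probe was at 0.48 ± 0.10 (adjusted p = 0.0302 in limma) beside 0.18 for the probe used.

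RBM48 showed the widest disagreement, 0.54 between its extreme probes. A dimmer RBM48 probe stood at -3.40 and -3.29 in DMSO and at -3.87 and -3.89 in DAPT, a difference of -0.54 ± 0.10 (adjusted p = 0.0255 in limma). Another dim RBM48 probe stood at -3.60 and -3.52 in DMSO and at -3.53 and -3.59 in DAPT, with overlap, and the probe used was at -0.15. The 3 probes carry the same transcript accession. Of the 5 SRSF2 probes, 4 ran from 0.24 to 0.36 and 1 was at -0.044. Across the 39 genes the median gap between the log2 fold changes of the extreme probes was 0.11.

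**Figure D3:**
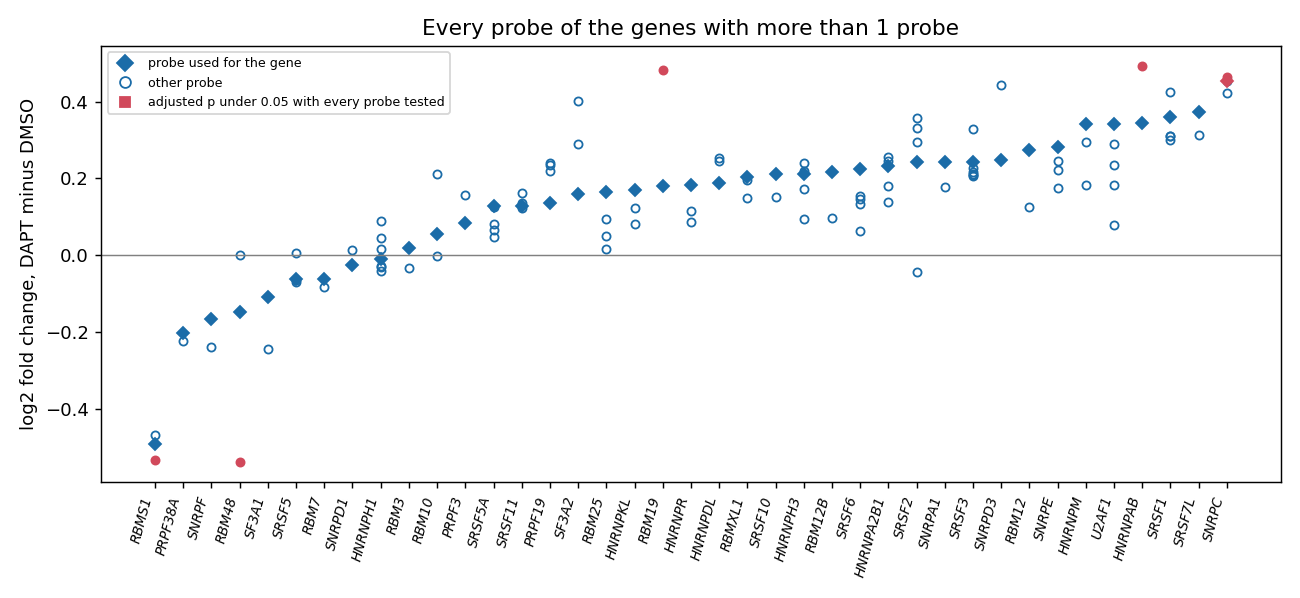
Log2 fold change (DAPT minus DMSO, vertical axis) of every probe of the 39 genes with more than 1 probe, with diamonds for the probe used, circles for others and red for an adjusted p under 0.05 with every probe tested. The 6 red probes belong to SNRPC, HNRNPAB, RBM19, RBM48 and RBMS1, and the 3 RBM48 probes spread over 0.54.

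Differences on the 2 slides, which share no array, had a Pearson correlation of 0.86 and a Spearman correlation of 0.70 over 43 members. No such correlation was computed over all features, so these values are not read as a trait of the members. The genes are not independent of each other, and RBMS1 lies far from the rest on both slides. For 25 of the 43 members the difference between groups was larger than both of their own replicate gaps. The share of all features with this was not computed, so the count cannot be set against it. The median gap was 0.12 between the DMSO arrays and 0.076 between the DAPT arrays of the members, compared with a median absolute log2 fold change of 0.20. For all features these were 0.19, 0.13 and 0.28.

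Other genes of RNA processing were also mostly not called. Over 5 lists with 73 measured genes that are not members, 5 passed in limma, 2 higher and 3 lower. This was 6.8%, beside 25.5% of all features. Of 28 other spliceosome components 0 passed, with log2 fold changes between -0.21 and 0.44 and a median of 0.11, and of 9 SMN complex and snRNP assembly genes and 8 SR protein kinase and SR-related genes also 0 passed. At an unadjusted p under 0.05 these 3 lists had 2, 2 and 0 genes, and with the slide block PHF5A, LSM7, WDR77 and GEMIN6 passed. Of 30 listed genes of the exon junction, mRNA export and decay only 11 were measured. The UPF and SMG genes of mRNA decay were not among them, so decay was not covered. Of the 11 measured genes 1 rose, THOC7, an export complex subunit, by 0.52 ± 0.098 (adjusted p = 0.0261 in limma). Over the 5 lists 11 of the 73 genes had an unadjusted p under 0.05, beside 38.8% of all features, and 11 passed with the slide block, beside 39.8%.

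The remaining 4 calls were in the list of tissue-regulated splicing regulators, where 1 of 17 rose and 3 fell, a share of 23.5% beside 25.5% of all features. CELF1, which regulates alternative splicing in heart and brain, stood at a difference of 1.50 ± 0.11 (adjusted p = 0.00262 in limma). RBPMS2, a marker of retinal ganglion cells, was at -2.27 ± 0.10 (adjusted p = 0.00123), ELAVL4, a neuronal stabiliser of mRNA, at -1.59 ± 0.23 (adjusted p = 0.0136), and MBNL2, a developmental regulator of splicing, at -0.62 ± 0.11 (adjusted p = 0.0223), all from limma. The calls of MBNL2 and THOC7 were lost without any 1 of the 4 arrays, in fits that leave 1 array in a group. Their sizes there were -0.69 to -0.55 for MBNL2 and 0.50 to 0.53 for THOC7. RBPMS2, ELAVL4 and CELF1 were the 3 of these 17 genes with at least a 2-fold change, a size that 0 of the 43 members reached. ELAVL4 also belongs to the neuron marker list, in which 3 of 6 measured genes fell and 2 rose, and the part of neuron number in its value was not tested.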

How the data were processed

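Per the file headers, the authors' spot intensities came from Agilent Feature Extraction 11.5.1.1, and the deposited processed signal is a linear intensity after background subtraction. The authors' table of values, deposited beside the scanner files, is that intensity times 1 factor per array (1.41 to 1.51), with column medians from 336 to 380. It is linear and not centred, and what set the factors is not given in the sources used here. The spot flags (well above background, outlier, saturation, control type), named other here, were deposited in the same files and used as filters only.

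Control and outlier spots (4 to 8 per array) were left out, no spot was saturated, and spots of a probe were averaged. Signals were put on a log2 scale relative to the 75th percentile of their array. Probe accessions were matched, unversioned, to a RefSeq gene table (GRCg7b), from which only names and the sex chromosome of HNRNPKL were taken, since the array design refers to galGal3. Of 43603 probes 11935 (27.4%) matched 5382 genes. Tested features had a signal well above background in both DMSO arrays or both DAPT arrays, and 6 with no value on 1 array were dropped, none a member.

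DAPT and DMSO were compared with limma 3.58.1 in R 4.3.3 (lmFit, eBayes, prior degrees of freedom 2.39), with Benjamini-Hochberg adjustment over all features at 0.05 and no block. With 2 arrays against 2, an exact permutation test has a smallest two-sided p of 0.333. Same-numbered arrays deviated together (correlation 0.58 over features), and the headers place them on 1 slide, so the block result stands beside the report's counts. The script was tested on simulated data with planted changes larger than that of any member and no shared deviation of same-numbered arrays. That test therefore does not bear on changes as small as those of the members. Arrays limit the precision by their number.

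Members and lists were chosen with earlier results of these data known. Described singly were, per family, the members with the smallest and largest absolute change, and RBM48 for its probes. SRSF1 and HNRNPM were added after their values were seen, as were short statements on other members. List genes were matched by exact symbol only. Alternatives were normexp background correction, median scaling, quantile normalization, the authors' values, no filter or a stricter one on dim probes, probe means, a trended robust prior, the block and each array left out. Testing every probe was added after seeing the data. No sequence is shown.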

Additional observations from a re-analysis of the deposited data

How the results depend on the processing

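The 0 members called higher became 6 with the replicate block, 5 with the trended robust prior and 2 with normexp background correction. They became 1 each with median scaling, with probes well above background on all 4 arrays, with the mean of a gene's probes and with every probe tested. Of all features, 39.8% passed in either direction with the block, 28.9% with the trended robust prior and 23.4% with normexp. With the settings that gave 1 member, 25.7% to 26.4% of all features passed. The 0 called lower became 1, RBMS1, with the replicate block, the trended robust prior, normexp and probe means. It stayed 0 with quantile normalization, the authors' values, no filter, a 2-fold change as well and each array left out (0 to 0). The members' median of 0.18 was 0.12 with the authors' values, 0.23 with median scaling, 0.12 with quantile normalization and 0.15 to 0.19 without each replicate in turn. Over all features, 3991 higher and 4235 lower became 6856 and 6001 with the block, and 1349 to 3078 and 2035 to 3359 without each replicate. Leaving out DAPT replicate 1 gave 1419 and 2070, and leaving out DAPT replicate 2 gave 1349 and 2035. The 5 calls among related genes became 11 with the block, 9 with normexp, 9 with the trended robust prior and 3 without each replicate. The cause of these moves was not tested.

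Signs turned only for members near 0. HNRNPH1 (-0.20 to 0.18 without each replicate) was at 0.0060 with probe means, 0.035 with median scaling, 0.18 without DAPT replicate 2 and 0.095 without DMSO replicate 1. RBM3 (-0.0076 to 0.044 without each replicate) was at -0.047 with the authors' values, -0.0069 with probe means, -0.14 with quantile normalization and -0.0076 without DMSO replicate 1. SNRPD1 (-0.13 to 0.075 without each replicate) was at 0.018 with median scaling, 0.074 without DAPT replicate 1 and 0.075 without DMSO replicate 2, and SRSF5 (-0.15 to 0.023) was at 0.023 without DMSO replicate 2. These are the reversals among the 15 members described singly, and the other 11 kept their sign under all 14 alternatives. Of these, leaving out each replicate moved HNRNPAB between 0.16 (DMSO replicate 1) and 0.53 (DMSO replicate 2). Between DAPT replicate 1 and DAPT replicate 2 left out, PRPF3 went from 0.011 to 0.16, SF3A1 from -0.18 to -0.036 and RBM48 from -0.26 to -0.036.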
